A study of Mus musculus with 8 samples.

Results

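The genes described here are 9 intracellular mediators and feedback genes of transforming growth factor beta (TGF-beta) signalling: Smad2, Smad3, Smad4, Smad7, Ski, Skil, Tgif1, Pmepa1 and Nox4. They were taken by gene name from the deposited count and FPKM tables, in which each name stands on 1 row, so 9 of 54532 genes were followed in all 8 libraries. The libraries are poly(A) RNA from C57BL/6 mouse cardiac fibroblasts at passage 2. In 4 of them the cells had received a plasmid that carries HA-tagged murine Thbs4, the gene of thrombospondin-4 (TSP-4), with a CMV promoter named in the plasmid. The other 4 received an empty plasmid, pAAV-CA, so the groups differ in plasmid backbone as well as in Thbs4. Sample titles call these controls non-stimulated. Both groups spent 12 h in standard medium and then 24 h without serum, and no sample was treated with TGF-beta according to the labels. The age and number of the animals and whether the libraries came from separate cultures are not stated in the labels, so the p-values measure only the spread between these libraries. Libraries carry the letters A to D in both groups.

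TGF-beta binds a pair of membrane receptors whose kinase phosphorylates SMAD2 and SMAD3. These join SMAD4, enter the nucleus and change transcription of target genes, among them matrix and contractile genes of the activated fibroblast in cardiac scarring. The pathway limits itself: SMAD7 competes at the receptor and brings ubiquitin ligases to it, SKI and SKIL (SnoN) hold SMAD complexes in a repressed state, TGIF1 is a homeodomain corepressor, and PMEPA1 sequesters receptor SMADs. Several of these brakes, such as Smad7, Skil and Pmepa1, are themselves induced by the pathway, as is Nox4, which encodes a hydrogen peroxide-producing NADPH oxidase used by TGF-beta in fibroblasts.

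Library totals ran from 17123735 to 22530947 counts, and both letter A libraries had the most counts of their group (22530947 and 21292609). Thbs4 itself checked the labels: the libraries with the TSP-4 plasmid held 25754 to 38063 counts and those with the empty plasmid 2 to 11. Fibroblast markers were present in every library, with a summed level of 3797 to 5942 CPM with the TSP-4 plasmid and 3799 to 6178 CPM with the empty plasmid (CPM, counts scaled to an equal library total with TMM factors). All 12 of 12 macrophage markers were also detected, summing to 318 to 1812 CPM and 349 to 1463 CPM. Of 7 cardiomyocyte markers 2 passed the expression filter, with a list sum of 12.0 to 17.8 CPM over the 8 libraries, and in 5 of these 7 (Myh6, Actc1, Nppa, Myl2 and Ryr2) the highest value in any library was 0.357 CPM. The 5 lymphocyte markers summed to at most 0.295 CPM, with Cd3g at 0 counts throughout. Epicardial markers summed to 172 to 365 CPM over the 8 libraries, endothelial markers to 45.6 to 81.6 CPM and mural cell markers to 31.7 to 61.4 CPM.

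None of the 9 genes was called different between the plasmids. Their levels had the same order in all 8 libraries, with 3 brake genes (Pmepa1, Ski and Smad7) above Smad4, Smad3 and Smad2, and the brakes Skil and Tgif1 below. Levels of different genes were compared per gene length, as FPKM. The highest was Pmepa1 at 70.3 to 93.9 FPKM (median 83.1), followed by Ski at 53.1 to 62.5 (median 58.2) and Smad7 at 34.5 to 43.6 (median 37.1). Smad4 lay at 27.8 to 31.9 FPKM (median 29.4) and Smad3 at 22.6 to 30.3 (median 27.3). Smad2 followed at 13.96 to 15.98 FPKM (median 14.5), Skil at 11.8 to 14.03 (median 12.9), Tgif1 at 6.59 to 12.2 (median 9.93) and Nox4 at 1.58 to 2.16 (median 1.79). The ranges over libraries overlapped for 3 pairs of neighbours in this order, namely Smad4 with Smad3, Smad2 with Skil, and Skil with Tgif1. Among the 14723 genes tested, the mean FPKM of Pmepa1 stood at percentile 96.1 and that of Nox4 at percentile 30.4. FPKM rests on 1 length per gene, from 3549 bp for Smad2 to 9694 bp for Skil, so a gene that uses shorter transcripts has its level understated.

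**Figure D1:**
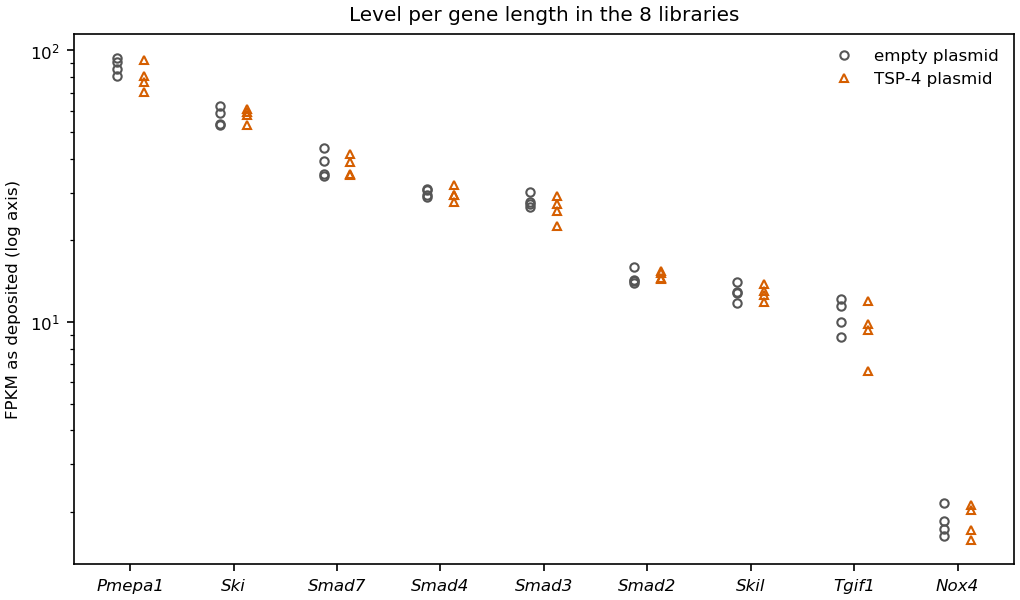
FPKM of the 9 genes (log axis) in each library, with circles for the 4 empty plasmid libraries and triangles for the 4 TSP-4 plasmid libraries. The order from Pmepa1 to Nox4 is the same in all 8 libraries, and the groups overlap for each gene.

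Ratios within a library show how these levels stand to each other. Smad3 was 1.46 to 2.14 times Smad2 in FPKM (median 1.85), and Smad4 was 1.80 to 2.19 times Smad2 (median 2.04). The inhibitory Smad7 was 1.27 to 1.72 times Smad3 (median 1.33). Ski was 3.79 to 5.17 times its relative Skil (median 4.56) and 1.81 to 2.08 times Smad4. The Ski to Skil ratio averaged 4.53 ± 0.547 (SD, n = 4) in the TSP-4 plasmid libraries and 4.43 ± 0.457 (SD, n = 4) in the controls. The groups overlapped, and within each of the 4 letters the ratio was higher with the TSP-4 plasmid, by the widest gap in letter A (5.17 against 4.86) and by less in B (4.57 against 4.55), C (3.83 against 3.79) and D (4.57 against 4.53). Pmepa1 was 2.13 ± 0.109 times Smad7 (SD, n = 4) in the TSP-4 plasmid libraries and 2.31 ± 0.163 times (SD, n = 4) in the controls, and the ranges of the groups overlapped. Within each of the 4 letters it was lower with the TSP-4 plasmid, from 2.06 against 2.07 in letter A to 2.01 against 2.43 in letter C. Other ratios, such as Smad7 to Smad3 and Pmepa1 to Ski, also went the same way in each of the 4 letters. Of all single genes tested, 8.04% were lower and 8.03% higher with the TSP-4 plasmid in 4 of 4 letters. The share among ratios of other genes was not examined, and these ratios were not tested.

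Among the receptor-regulated SMADs, Smad2 (ENSMUSG00000024563, chromosome 18 from 76241580 to 76305731, plus strand, GRCm38) held 54.8, 54.3, 51.8 and 51.5 CPM in the TSP-4 plasmid libraries A to D. The empty plasmid libraries A to D held 49.5, 51.4, 57.4 and 50.4 CPM. The groups overlapped, and the log2 fold change was 0.02 (95% interval -0.11 to 0.16). Smad3 (ENSMUSG00000032402, chromosome 9 from 63646767 to 63757994, minus strand) held 125, 152, 143 and 163 CPM against 146, 153, 155 and 168 CPM. It was lowest in the TSP-4 plasmid library A, and both letter D libraries were the highest of their group. The log2 fold change of Smad3 was -0.09 (95% interval -0.28 to 0.09). Smad4 (ENSMUSG00000024515, chromosome 18 from 73639009 to 73703780, minus strand), the shared partner of all receptor SMADs, held 118, 104, 109 and 110 CPM against 113, 110, 108 and 116 CPM. Its groups overlapped as well, with a log2 fold change of -0.02 (95% interval -0.14 to 0.09). GENCODE M21 places a processed pseudogene, AC132418.2, on the opposite strand within Smad4, which was not analysed here. Whether this pseudogene overlaps an exon of Smad4 was not examined, and whether counting used strand is not stated. It is therefore not known whether reads from the pseudogene entered the Smad4 count.

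Smad7 (ENSMUSG00000025880, chromosome 18 from 75367529 to 75395935, plus strand), the inhibitory SMAD, held 176, 158, 158 and 189 CPM in the TSP-4 plasmid libraries A to D. It held 197, 158, 161 and 178 CPM in the empty plasmid libraries. Letters A and D were high and letters B and C low in both groups. The means were 170 ± 14.9 against 173 ± 17.96 CPM (SD, n = 4 each), with a log2 fold change of -0.02 (95% interval -0.22 to 0.17).

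The corepressor Ski (ENSMUSG00000029050, chromosome 4 from 155154075 to 155222592, minus strand) held 339, 323, 296 and 333 CPM in the TSP-4 plasmid libraries A to D, against 347, 301, 299 and 328 CPM in the controls. Letters A and D were again the higher ones, and the groups overlapped. Its log2 fold change was 0.02 (95% interval -0.13 to 0.17). Skil (ENSMUSG00000027660, chromosome 3 from 31095058 to 31122577, plus strand), a relative of Ski that TGF-beta both degrades as protein and induces as RNA, held 114, 123, 135 and 127 CPM against 124, 115, 138 and 126 CPM. Skil was highest in letter C of both groups, where Ski was lowest, and its groups overlapped. Its log2 fold change was -0.01 (95% interval -0.17 to 0.14). Tgif1 (ENSMUSG00000047407, chromosome 17 from 70844205 to 70853546, minus strand) held 37.0, 53.2, 55.7 and 67.9 CPM against 49.6, 56.8, 65.2 and 68.98 CPM. It was lowest in letter A and highest in letter D of both groups, and the groups overlapped. The log2 fold change of Tgif1 was -0.17, with the widest 95% interval of the 9 genes, -0.59 to 0.24. A processed pseudogene of this gene, Tgif1-ps on chromosome 3, had 0 counts in every library.

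Pmepa1 (ENSMUSG00000038400, chromosome 2 from 173224458 to 173276533, minus strand) held 393, 380, 346 and 457 CPM in the TSP-4 plasmid libraries A to D. It held 443, 401, 425 and 463 CPM in the empty plasmid libraries. Letter D was highest in both groups, and 3 of the 4 TSP-4 plasmid libraries lay below every empty plasmid library. The means were 394 ± 46.4 against 433 ± 26.6 CPM (SD, n = 4 each). This is a log2 fold change of -0.14 (95% interval -0.33 to 0.06). Nox4 (ENSMUSG00000030562, chromosome 7 from 87246096 to 87398710, plus strand), the enzyme at the end of this list, held 14.6, 13.5, 17.3 and 18.1 CPM against 15.7, 14.03, 14.8 and 18.4 CPM. Both letter D libraries were the highest of their group and both letter B libraries the lowest, and the groups overlapped. These values rest on 236 to 353 counts per library, the fewest of the 9 genes, and counting alone gives an error of about 5.79%. The log2 fold change of Nox4 was 0.01 (95% interval -0.27 to 0.29).

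**Figure D2:**
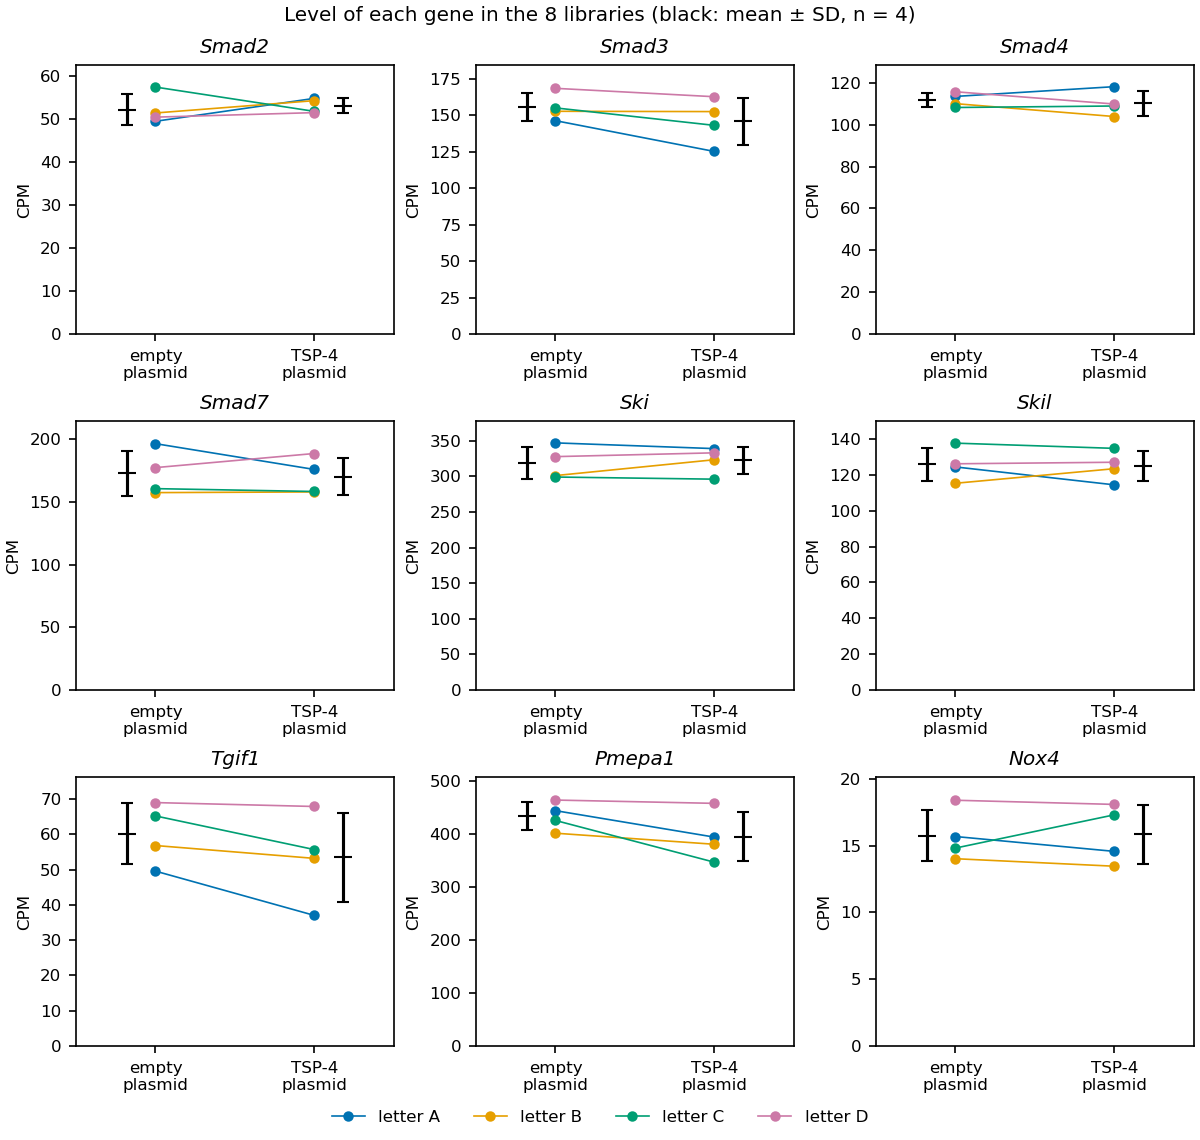
CPM (linear axes from 0) of each gene in the 8 libraries, with libraries of the same letter joined by a line and the mean ± SD of each group (n = 4) in black. Pmepa1, Tgif1 and Smad3 lie lower with the TSP-4 plasmid in all 4 letters, while the other 6 genes go both ways.

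In edgeR's quasi-likelihood test 0 of the 9 genes passed an adjusted p of 0.05, in a comparison in which 0.00679% of the 14723 genes tested were called (1 gene, Thbs4). The adjusted p was 1.00 for each of the 9, and 0 of them had an unadjusted p under 0.05. DESeq2 and limma voom also called 0. Of the 9, 3 had a fold change above 0 and 6 below. Their median was -0.02 on the log2 scale, next to -0.00 for all genes tested, of which 49.9% were above 0. Groups did not overlap for 0 of the 9 genes, against 1.51% of all genes. For 8 of the 9 genes the whole 95% interval was narrower than a 1.5-fold change in either direction, against 70.5% of all genes tested. Tgif1 was the exception, its lower bound of -0.59 lying just past that limit. By mean CPM the 9 genes stood at percentiles 44.7 (Nox4) to 97.5 (Pmepa1) of the genes tested, and the share among genes of like level was not examined.

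**Figure D3:**
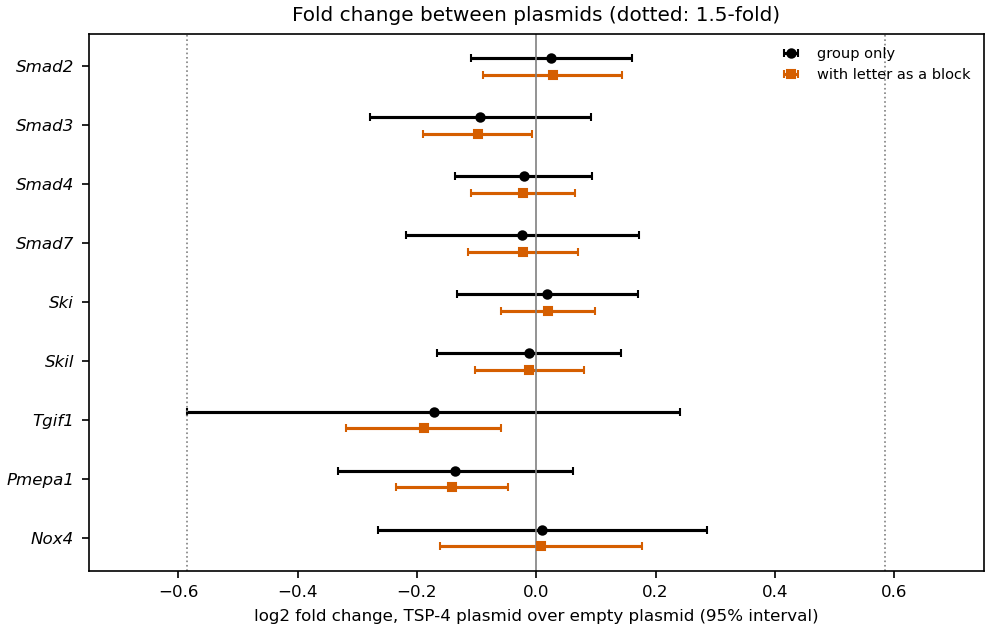
Log2 fold change of the TSP-4 plasmid over the empty plasmid with its 95% interval, from edgeR fits with group only (black circles) and with letter as a replicate block (orange squares). All 9 black intervals cover 0, and the orange intervals of Smad3, Tgif1 and Pmepa1 lie below 0 before adjustment over all genes.

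Libraries of the same letter deviated together, so the comparison was also made within letters. With the letter as a replicate block 0 of the 9 genes were called, beside 0.0136% of all genes (2 genes). Pmepa1 had a log2 fold change of -0.14 (95% interval -0.23 to -0.05, adjusted p 0.425). The differences within letters A to D were -0.17, -0.08, -0.30 and -0.02. Tgif1 had -0.19 (95% interval -0.32 to -0.06, adjusted p 0.449), from -0.42, -0.10, -0.23 and -0.02 within the letters. Smad3 had -0.10 (95% interval -0.19 to -0.01, adjusted p 0.578), from -0.22, -0.00, -0.12 and -0.05. These 3 genes were lower in 4 of 4 letters, against 8.04% of all genes, and 0 of the 9 were higher in 4 of 4, against 8.03%. They were also the 3 of 9 that were lower at an unadjusted p under 0.05 with the block, against 3.98% of all genes. None of the 9 was higher at that limit, and 1196 of 14723 genes passed it in either direction. This count rests on the same differences within letters as the count of 4 of 4. With the block and 1 letter left out, Smad3 came to -0.054 without letter A, Tgif1 to -0.11 without letter A and Pmepa1 to -0.088 without letter C, each over 1.5 times smaller. None of the 3 passed once p was adjusted over all genes tested, and the size of each difference varied among the letters from nearly 0 in letter D or B to its largest in letter A or C. Among the other 6 genes the largest block estimate was that of Smad2, 0.03 (95% interval -0.09 to 0.14). With the block the interval stayed inside 1.5-fold for 9 of 9 genes.

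More of these genes were called between letters than between plasmids. The labels do not say what a letter stands for. In an F-test of the letter terms with edgeR, 5 of the 9 genes were called between letters, against 28.1% of all genes tested. The called genes were Tgif1 (adjusted p 0.000356), Smad7 (0.0100), Smad3 (0.0139), Pmepa1 (0.0168) and Ski (0.0320). By mean CPM these 5 stood at percentiles 73.0 (Tgif1) to 97.5 (Pmepa1) of the genes tested. The share called among genes of like level was not examined. With a likelihood ratio test in DESeq2 3 were called, Tgif1, Smad7 and Pmepa1, while Smad3 had an adjusted p of 0.0529 and Ski of 0.0601. Without both letter D libraries edgeR called Tgif1, Smad7 and Ski only, and Pmepa1 and Smad3 had adjusted p-values of 0.240 and 0.169. Without both letter A libraries Smad3 (0.0725) and Ski (0.0727) no longer passed, while Nox4 (0.0339) and Skil (0.0464) did. Without both letter C libraries Ski did not pass (0.207) and Nox4 did (0.0369). Nox4 (0.0615), Skil (0.0653), Smad4 (0.357) and Smad2 (0.716) did not pass in the fit over all letters.

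Letter means of Tgif1 were 43.3 CPM in letter A, 54.99 in B, 60.4 in C and 68.4 in D, a 1.58-fold span. Nox4 spanned 1.33-fold, from 13.7 CPM in letter B to 18.2 in D. Pmepa1 was highest in letter D (460 CPM) and lowest in C (386), and Smad3 was highest in D (165) and lowest in A (136). Smad7 was highest in A (186) and lowest in B (158), and Ski was highest in A (343) and lowest in C (298). Smad2 and Smad4, the most even of the 9 genes, spanned 1.07-fold and 1.083-fold. Their coefficients of variation over the 8 libraries were 5.01% and 4.09%, next to counting errors of 3.17% and 2.18%, while that of Tgif1 was 18.8% next to 3.06%. On the log2 scale the median letter range was 0.24 for the 9 genes and 0.30 for all genes tested. Markers of several cell types also differed between the letters. The summed level of the macrophage markers averaged 334 CPM in letter A, 935 in B, 1638 in C and 727 in D, and 11 of 12 were called between letters. Fibroblast markers summed to 4829, 6060, 4935 and 3798 CPM in the same order, with 7 of 9 called. Most of that sum was Col1a2, and Thy1 had another pattern, lowest in letter C of both groups. Epicardial markers summed to 356, 174, 215 and 271 CPM in letters A to D, with 3 of 4 called and most of the sum from Upk3b. Like Smad7 and Ski, this sum was higher in letters A and D than in B and C, as was Upk3b itself. Krt19 had this pattern with the TSP-4 plasmid, at 2.48, 1.83, 1.83 and 3.48 CPM in letters A to D. With the empty plasmid Krt19 held 2.44, 1.89, 2.70 and 4.43 CPM, with letter A below C. Msln and Wt1 did not share the pattern of high letters A and D. Msln held 23.0, 8.90, 23.1 and 26.5 CPM in the TSP-4 plasmid libraries A to D. In the empty plasmid libraries Msln held 35.6, 8.43, 30.6 and 25.0 CPM, and Wt1 was not called between letters. Endothelial markers summed to 70.7, 46.3, 68.3 and 62.9 CPM, with 4 of 7 called, and 0 of 4 tested mural cell markers were called. In bulk RNA fewer cells of a type and less RNA per cell cannot be told apart, and the part of other cell types in the letter differences of the 9 genes was not tested.

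**Figure D4:**
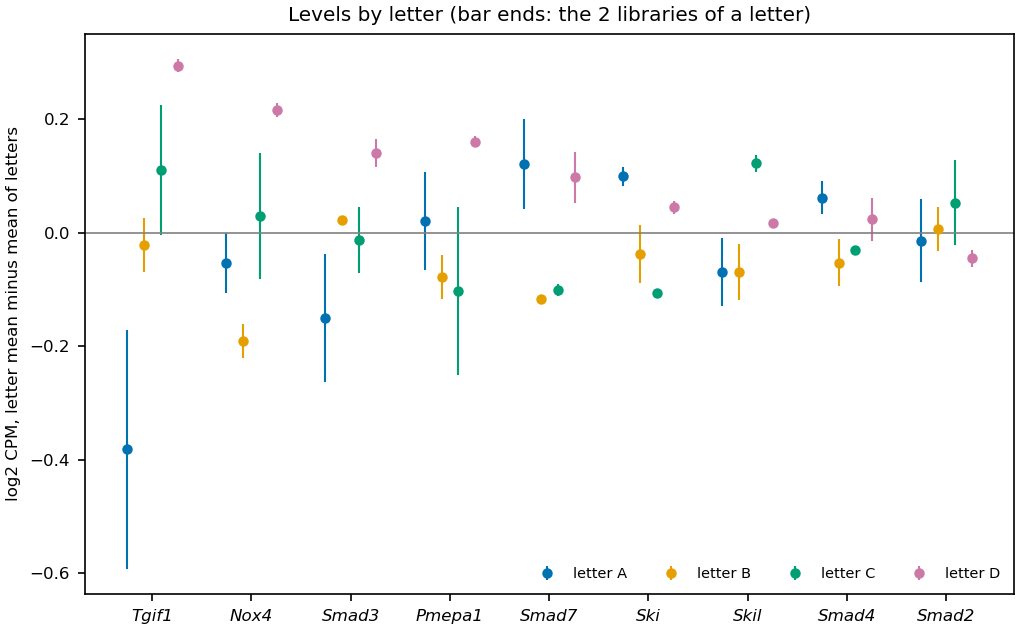
Mean log2 CPM of each letter relative to the mean of the 4 letters, genes ordered by their range; each bar ends at the 2 libraries of that letter. Letter D is highest for Tgif1, Nox4, Smad3 and Pmepa1, letter A is lowest for Tgif1 and Smad3, and Smad2 and Smad4 stay near 0.

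The genes whose levels over the 8 libraries were most like those of Tgif1 and Nox4, the 2 with the widest letter ranges, were found by the mean absolute difference of centred log2 CPM among 9323 genes with a mean of at least 10 CPM. Closest to Tgif1 was Ier2, an immediate-early response gene, at a difference of 0.05 against a median of 0.23 over all these genes. Ier2 held 20.1, 30.6, 29.8 and 36.5 CPM in the TSP-4 plasmid libraries A to D and 29.1, 32.6, 36.9 and 37.5 CPM in the empty plasmid libraries. Like Tgif1 it was lowest in letter A of both groups, and lower with the TSP-4 plasmid than with the empty plasmid in each letter. The next were the transporter gene Slco4a1 (0.06), Itpripl2 (0.06), Ifrd2 (0.08) and Dtnb (0.08). Closest to Nox4 were Flt1, a VEGF receptor gene, Dph2, Coq5 and Llph (0.05 each) and Ankrd26 (0.05), against a median of 0.16. These likenesses describe 8 libraries that come in 4 letter pairs.

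**Figure D5:**
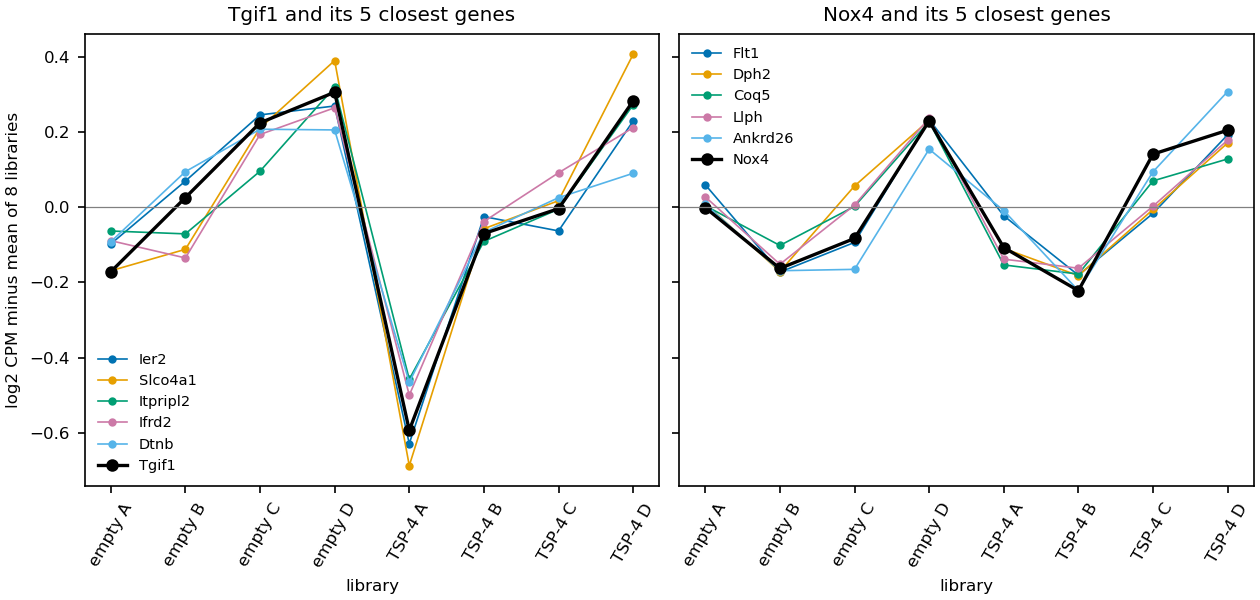
Log2 CPM of Tgif1 (left) and Nox4 (right) in black with their 5 closest genes in colour, each relative to its mean over the 8 libraries; the lines only join the points of a gene. Tgif1 and its neighbours dip most in the TSP-4 plasmid library A, and Nox4 and its neighbours are high in both letter D libraries.

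RefSeq promoter windows on GRCm38.p6, from 250 bases before to 50 after a start, were found for 4 of the 9 genes: Ski, Nox4 and Smad3 with 1 start each and Tgif1 with 5. They were searched on both strands for 4 motifs: CAGACA, the core of the CAGA box bound by SMAD3 and SMAD4, GTCTAGAC, the palindromic SMAD element, GGCGC, a GC-rich SMAD motif, and TGTCA, the core bound by TGIF1. CAGACA was present in the Nox4 window and in 2 of the 5 Tgif1 windows and not in those of Ski or Smad3, while 21.0% of 32817 promoter windows hold it. GTCTAGAC was in 0 of the windows of these genes and in 0.213% of all. GGCGC was present in the windows of Ski and Nox4 and in 3 of the 5 Tgif1 windows, not in that of Smad3, and in 36.8% of all. It had 7 matches in the Ski window, some of them overlapping, 3 for Nox4 and 5 over the Tgif1 windows. The Ski window is 85.3% G and C, those of Nox4 and Smad3 68.3% and 67.7%, and those of Tgif1 37.3% to 68.7%. TGTCA matched in 4 of the 5 Tgif1 windows and in 0 of the other 3, against 45.4% of all. These letters describe the windows and are not evidence of binding. The windows of Tgif1 (start nearest the 5′ end of the gene, chr17:70853483-70853782, minus strand) and Nox4 (chr7:87246399-87246698, plus strand) are shown 5′ to 3′ because these genes had the widest letter ranges, with CAGACA, or TGTCTG where it lies on the other strand, in capitals.
Tgif1: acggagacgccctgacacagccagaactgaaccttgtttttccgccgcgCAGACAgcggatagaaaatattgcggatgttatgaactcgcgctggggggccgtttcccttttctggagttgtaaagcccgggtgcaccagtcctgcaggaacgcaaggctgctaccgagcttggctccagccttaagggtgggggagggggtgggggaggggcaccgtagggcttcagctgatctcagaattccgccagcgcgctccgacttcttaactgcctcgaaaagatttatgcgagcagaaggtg
Nox4: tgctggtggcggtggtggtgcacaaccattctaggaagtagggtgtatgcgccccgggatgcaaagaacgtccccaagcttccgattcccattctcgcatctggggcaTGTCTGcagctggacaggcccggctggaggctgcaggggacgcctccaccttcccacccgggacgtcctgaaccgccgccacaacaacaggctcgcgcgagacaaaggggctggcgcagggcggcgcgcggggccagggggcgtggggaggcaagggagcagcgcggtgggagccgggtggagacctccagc

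The other genes of the pathway, taken from fixed lists, gave 0 calls in either direction between the plasmids, over 105 tested genes that include the cell type markers. Upstream, 5 of the 6 genes for TGF-beta ligands and their receptors had fold changes above 0 (median log2 fold change 0.08). With the letter as a block, Tgfb2, Tgfb3 and Tgfbr2 (3 of the 6) were higher at an unadjusted p under 0.05 in edgeR. Of all 14723 genes tested, 1196 passed that limit in either direction, and 0 of the 6 passed after adjustment. Tgfb2 held 155 CPM in the TSP-4 plasmid library A and 67.0 to 95.8 CPM in B to D. Tgfb2 stood at 103 ± 37.1 against 79.2 ± 13.8 CPM, and the type II receptor Tgfbr2 at 197 ± 38.4 against 181 ± 36.3 CPM (SD, n = 4 each). The remaining SMADs lay on both sides of 0 (2 of 4 above, median 0.02). Of these, Smad6, the inhibitor of the BMP branch, stood at 160 ± 30.4 against 155 ± 39.6 CPM, and Smad1, a BMP receptor SMAD, at 31.7 ± 3.35 against 32.3 ± 2.59 CPM (SD, n = 4 each).

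Enzymes of SMAD turnover had 9 of 15 fold changes above 0, with a median of 0.01. The ubiquitin ligase Smurf2, which SMAD7 recruits to the receptor, stood at 388 ± 85.4 against 447 ± 56.8 CPM with a log2 fold change of -0.20. The deubiquitinase Usp9x stood at 273 ± 25.9 against 252 ± 14.6 CPM, and the ligase Rnf111 (Arkadia), which degrades SKI, SnoN and SMAD7, at 61.2 ± 4.22 against 64.8 ± 3.82 CPM (SD, n = 4 each). SMAD cofactors had 4 of 12 tested members above 0 and a median of -0.02. Among them the anchor gene Zfyve9 (SARA) stood at 35.8 ± 1.62 against 38.2 ± 3.31 CPM and the corepressor Ncor1 at 176 ± 9.85 against 177 ± 7.80 CPM (SD, n = 4 each).

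Target genes of TGF-beta split evenly, with 10 of 20 above 0 and a median of -0.00. Junb, a transcription factor gene, stood at 175 ± 35.3 against 197 ± 23.9 CPM (SD, n = 4 each). Cdkn2b, a cell cycle inhibitor induced by TGF-beta, stood at 124 ± 16.0 against 108 ± 4.82 CPM (log2 fold change 0.20; SD, n = 4 each). The cytokine gene Il11 was low, at 1.082 ± 0.457 against 1.41 ± 0.411 CPM (SD, n = 4 each). Between the letters 15 of these 20 targets were called, next to 5 of the 9 mediators and feedback genes and 28.1% of all genes tested. The summed level of the targets was 33530 CPM in letter A and 25843 in letter D, while Pmepa1 and Smad3 were highest in letter D. Whether targets and mediators differ in how they follow the letters was not tested.

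Partners of Nox4 were examined because the enzyme needs the membrane subunit p22phox. Its gene Cyba stood at 108 ± 18.4 against 104 ± 16.5 CPM (SD, n = 4 each). Of 14 other NADPH oxidase genes 10 were tested, of which 3 had a fold change above 0 (median -0.02). The small GTPase gene Rac1 stood at 393 ± 8.29 against 400 ± 17.7 CPM, and the cytosolic subunit gene Ncf4, typical of phagocytes, at 6.40 ± 3.96 against 6.95 ± 2.16 CPM (SD, n = 4 each). Between letters 6 of the 10 were called, against 28.1% of all genes tested.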

How the data were processed

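Gene counts and FPKM values, both deposited by the authors, were the starting point. The counts are whole-number reads per gene; per the submitters' processing notes CASAVA, TopHat2 2.0, Cufflinks 2.1.1 and HTSeq 0.6.1 were used with the builds mm10 and GRCm38.p6. The role of each tool, the strand setting and the annotation release were not given in the sources used here. Each deposited FPKM value equals count over length and total times 1 constant per library (0.974 to 1.02). Counts were tested with edgeR 4.0.16 (quasi-likelihood, robust, TMM, expression filter at a minimum count of 10) in R 4.3.3, with group as the term and Benjamini-Hochberg adjustment over 14723 genes. Log2 CPM used a prior count of 2. Alternatives were DESeq2 1.42.0, limma 3.58.1 (voom, or log2(FPKM + 0.1) and log2(FPKM + 1)), other size factors, no filter, a replicate block, and left-out libraries or letters. Fits were tested on simulated counts. The letters A to D were treated as pairs because deviations from group means correlated across genes at 0.508 to 0.651 for the same letter and -0.570 to 0.323 otherwise. Depth was 17123735 to 22530947 counts. Named genes are the 9 members and, in each list, a part of those with the 4 smallest p-values or the 2 highest means; for the 2 members of widest letter range, the 5 closest genes. Members and lists were chosen with earlier results of these data known, and the motifs after the values were seen. Where 1 symbol had 2 rows (Hgs), the row with more counts was used. The values of 1 target gene are not reported here.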

Additional observations from a re-analysis of the deposited data

Results flagged for a closer look

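In groups of 4 libraries, 22 sets of values were examined (the 9 genes, Thbs4 and total counts in each group) and 1 had a library far from the other 3; chance flags about 5% of such groups. The total of the TSP-4 plasmid library A, 22530947 counts, stood apart from the next, 17681837, by 0.897 of the range of its group. In the same library Tgif1 (37.0 CPM) and Smad3 (125 CPM) were the lowest of all 8 libraries.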

How the results depend on the processing

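In all 20 alternatives 0 of the 9 genes were called between the plasmids (smallest adjusted p 0.316, for Pmepa1). Smad3, Tgif1 and Pmepa1 were lower in 20 of 20. Nox4 changed direction in 6 of 20, among them limma voom (-0.00083). Smad7 and Ski changed direction in 4 of 20 each, Skil in 3, and Smad2 and Smad4 in 2 each. All alternatives use the same libraries or a part of them. Genes called between the plasmids were 2 with the replicate block, 5 with DESeq2 and the replicate block, 1 in each fit with 1 library left out, and, with the block and 1 letter left out, 5 without A, 4 without B, 2 without C and 1 without D; the cause was not tested. Members called between letters were 3 with DESeq2, 6 without the filter, 3 without letter D and 5 without each other letter. With 1 library left out the log2 fold change ranged from -0.00015 to 0.074 for Smad2, -0.15 to -0.026 for Smad3, -0.056 to 0.0059 for Smad4, -0.076 to 0.044 for Smad7, -0.011 to 0.063 for Ski, -0.051 to 0.034 for Skil, -0.31 to -0.028 for Tgif1, -0.21 to -0.074 for Pmepa1 and -0.059 to 0.094 for Nox4. Tgif1 came to -0.028 without the TSP-4 plasmid library A. With the block and 1 letter left out the ranges were -0.012 to 0.088 for Smad2, -0.047 to 0.0019 for Smad4, -0.054 to 0.027 for Smad7, -0.0086 to 0.040 for Ski, -0.048 to 0.028 for Skil, -0.061 to 0.051 for Nox4, -0.13 to -0.054 for Smad3, -0.24 to -0.11 for Tgif1 and -0.18 to -0.088 for Pmepa1. The fixed list genes gave 0 calls with the block and in each fit with 1 library left out.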

Other observations

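Hgs, an endosomal partner of SARA that is expressed in most cells, has 2 rows in the deposited table with near-identical coordinates (chromosome 11 from 120467635 to 120483979 and to 120483984). They held 0 to 2 and 0 counts per library. It was singled out after its values were seen, and its level is not interpreted here.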
